A study of Mus musculus with 8 samples.

Results

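Accessibility at the 4 Hox gene clusters was examined in ATAC-seq peak lists of mouse retinal ganglion cells (RGCs). ATAC-seq uses a transposase that cuts open DNA, so a peak marks a stretch of accessible chromatin. The genes were the 38 Hox genes listed for this comparison, of 21887 protein-coding genes in the annotation, and each took the peaks sharing at least 1 bp with its body or the 5 kb on either side. Peaks of all 8 lists that overlapped were merged, which gave 46 Hox regions of 189914 in all. They comprised 16 regions at 10 Hoxa genes, 13 at 10 Hoxb genes, 7 at 9 Hoxc genes and 10 at 9 Hoxd genes. Neighboring Hox genes lie so close that their windows overlap, so 1 peak could count for several genes.

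C57BL/6J mice received virus (AAV2) in the vitreous body, the optic nerve was crushed 2 weeks later, and RGCs were collected by cell sorting 3 days after the crush, with 50000 cells in each library. The virus carried GFP as the control (3 libraries), Ezh2 (3 libraries) or Ezh2-Y726D (2 libraries), a mutant form of Ezh2 that lacks methyltransferase activity. All 3 groups thus shared the injection, the crush and the cells' own Ezh2 gene. The labels did not say whether libraries came from separate animals, so p-values measure the spread between these libraries only, and the promoter that drove the viral genes was not given in the labels. The 8 lists held 112939 to 135895 peaks, and the read depth was unknown.

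Hox genes encode homeodomain transcription factors that give cells a position along the head to tail axis, and their order on the chromosome follows that axis. Low paralog numbers act toward the head and high numbers toward the tail, and each cluster reads from a single strand. Ezh2 is the catalytic subunit of PRC2, a polycomb repressive complex that trimethylates lysine 27 of histone H3, and silent Hox clusters are the classic example of chromatin that carries this mark. Retina and forebrain arise at the head end of the embryo and are known for largely silent Hox genes. No histone mark or RNA level of these cells was analyzed here.

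Several Hox starts showed the contrast between the groups. The 250 bases before a start are given for 4 of them, from RefSeq (GRCm38), 5′ to 3′ on the gene's strand, with each CG dinucleotide in capitals, because dense CG is a hallmark of promoters that PRC2 binds. The first 3 belonged to starts with a peak in every GFP and every Ezh2 library and in neither Ezh2-Y726D library. They were Hoxb4 at chr11:96318017-96318266 on the plus strand, the distal start of Hoxa10 at chr6:52240855-52241104 on the minus strand, and Hoxd9 at chr2:74697513-74697762 on the plus strand. Another listed start of this kind, that of Hoxa3, is not shown because Ezh2-Y726D kept a peak just beyond 1 kb from it. Hoxd1, at chr2:74762730-74762979 on the plus strand, is shown for contrast, with a peak in 2 of 3 GFP libraries, all 3 Ezh2 libraries and both Ezh2-Y726D libraries.
Hoxb4: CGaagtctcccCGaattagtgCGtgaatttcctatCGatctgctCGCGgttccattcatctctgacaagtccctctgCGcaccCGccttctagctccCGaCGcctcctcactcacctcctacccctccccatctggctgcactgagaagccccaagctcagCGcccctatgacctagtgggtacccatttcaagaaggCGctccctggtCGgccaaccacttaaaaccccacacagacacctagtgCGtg
Hoxa10: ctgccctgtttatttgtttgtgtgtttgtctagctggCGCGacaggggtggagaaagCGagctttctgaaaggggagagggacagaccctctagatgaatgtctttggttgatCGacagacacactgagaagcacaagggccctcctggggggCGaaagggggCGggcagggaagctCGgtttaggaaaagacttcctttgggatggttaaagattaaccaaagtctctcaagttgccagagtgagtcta
Hoxd9: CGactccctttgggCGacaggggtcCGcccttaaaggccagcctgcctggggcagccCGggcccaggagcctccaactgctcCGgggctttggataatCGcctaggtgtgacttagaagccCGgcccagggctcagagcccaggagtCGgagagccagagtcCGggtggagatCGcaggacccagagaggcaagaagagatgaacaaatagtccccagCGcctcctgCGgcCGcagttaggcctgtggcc
Hoxd1: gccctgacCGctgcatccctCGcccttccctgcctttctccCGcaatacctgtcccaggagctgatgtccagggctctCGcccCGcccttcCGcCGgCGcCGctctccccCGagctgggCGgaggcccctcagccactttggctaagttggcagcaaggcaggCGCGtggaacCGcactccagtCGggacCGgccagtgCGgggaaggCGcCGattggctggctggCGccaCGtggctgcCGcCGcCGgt
These stretches held 14, 7, 13 and 24 CG dinucleotides in that order, counted on the printed strand. Of 21263 starts of protein-coding genes in the same table, 60.5%, 41.4%, 57.6% and 84.5% had fewer, and the median was 10. Across the 24 listed Hox starts the count ran from 2 to 35 with a median of 12.5. The 12 Hox starts with no peak in any library had 2 to 24, so the counts overlapped between starts with a peak and those without.

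The Hox clusters had fewest peaks with Ezh2-Y726D and most with Ezh2. The GFP libraries held 26, 28 and 30 Hox peaks, the Ezh2 libraries 38, 34 and 38, and the Ezh2-Y726D libraries 14 and 13. The 3 groups did not overlap, at means of 28 ± 2 (SD, n = 3), 36.7 ± 2.31 (n = 3) and 13.5 ± 0.707 (n = 2). Ezh2-Y726D therefore had 0.482 times and Ezh2 1.31 times the GFP mean. The whole lists did not show this order, since their mean length was 1.08 times the GFP mean in Ezh2 and 1.05 times in Ezh2-Y726D, with overlapping libraries. Hox peaks covered 12455, 13857 and 16733 bp in GFP, 17951, 18990 and 23219 bp in Ezh2, with 5821 and 5191 bp in Ezh2-Y726D, again without overlap. An absent peak means that the signal stayed under the peak caller's threshold, not that the site was closed, and in bulk cells a smaller share of cells with an open site and less opening per cell cannot be told apart.

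Ezh2-Y726D had the fewest peaks in each cluster, and Ezh2 had more than GFP without overlap at Hoxb. At Hoxa, all 3 GFP libraries had 9 peaks, the Ezh2 libraries 12, 9 and 11, and both Ezh2-Y726D libraries 4. At Hoxb, the GFP libraries had 5, 7 and 6, the Ezh2 libraries 11, 10 and 11, and both Ezh2-Y726D libraries 3. At Hoxc, the GFP libraries had 6, 5 and 6, the Ezh2 libraries 6, 7 and 6, and both Ezh2-Y726D libraries 2. At Hoxd, the GFP libraries had 6, 7 and 9, the Ezh2 libraries 9, 8 and 10, and the Ezh2-Y726D libraries 5 and 4. Ezh2-Y726D thus lay below every other library in each cluster, with the lowest ratio to GFP at Hoxc (0.353) and the highest at Hoxd (0.614). Ezh2 lay above every GFP library in peak number only at Hoxb, where its mean was 1.78 times that of GFP, and its range touched or overlapped the GFP range in the other clusters.

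**Figure D1:**
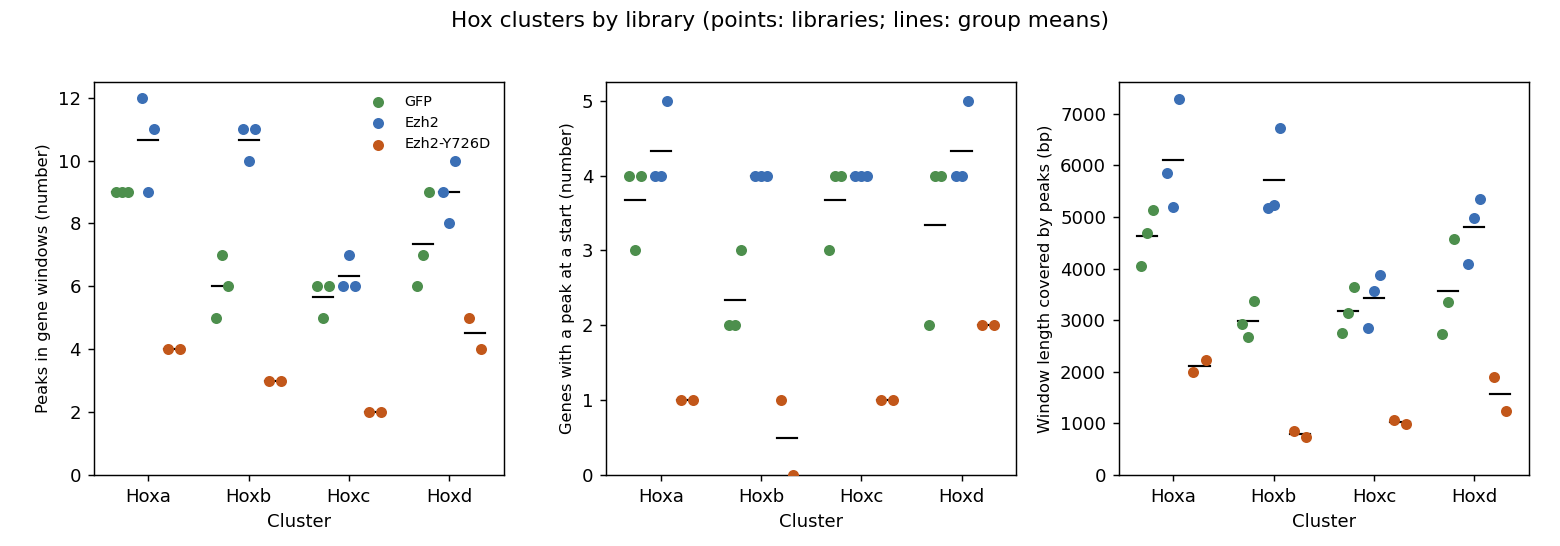
Number of Hox peaks, number of Hox genes with a peak within 1 kb of a start, and length covered by Hox peaks (bp) for each cluster. Points are libraries (GFP green, Ezh2 blue, Ezh2-Y726D orange) and lines are group means, and the orange points are the lowest of each cluster except for genes with a start peak at Hoxd, where 1 GFP library also had 2.

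Peaks also reached fewer Hox genes. Of the 38 genes, 28, 30 and 28 had a peak in their window in GFP, 30, 30 and 31 in Ezh2, with 17 and 19 in Ezh2-Y726D. The share of all protein-coding genes with such a peak was nearly constant, at 79.4% to 81.1% in the 8 libraries. Windows of 16 genes had a peak in every library, and 6 had none in any: Hoxb1, Hoxc11, Hoxc12, Hoxc13, Hoxd4 and Hoxd11. A peak within 1 kb of a start was present for 11, 13 and 15 Hox genes in GFP, 16, 16 and 18 in Ezh2, with 5 and 4 in Ezh2-Y726D. Over all genes with a listed start the share was 66.2% to 68.7% in every library.

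Start peaks were also counted by paralog group. Among the 11 anterior genes (paralogs 1 to 4), 3, 5 and 4 had a start peak in GFP, 4, 4 and 5 in Ezh2, with 2 and 2 in Ezh2-Y726D. Among the 11 central genes (5 to 8), the numbers were 5, 4 and 4 in GFP, 5, 5 and 5 in Ezh2, with 2 and 2 in Ezh2-Y726D. Among the 16 posterior genes (9 to 13), they were 3, 4 and 7 in GFP, 7, 7 and 8 in Ezh2, with 1 and 0 in Ezh2-Y726D. Ezh2-Y726D had the lowest counts in all 3 paralog groups, and whether the groups differed from each other was not tested. Start peaks were present in both Ezh2-Y726D libraries for Hoxa4, Hoxc6 and Hoxd1.

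**Figure D2:**
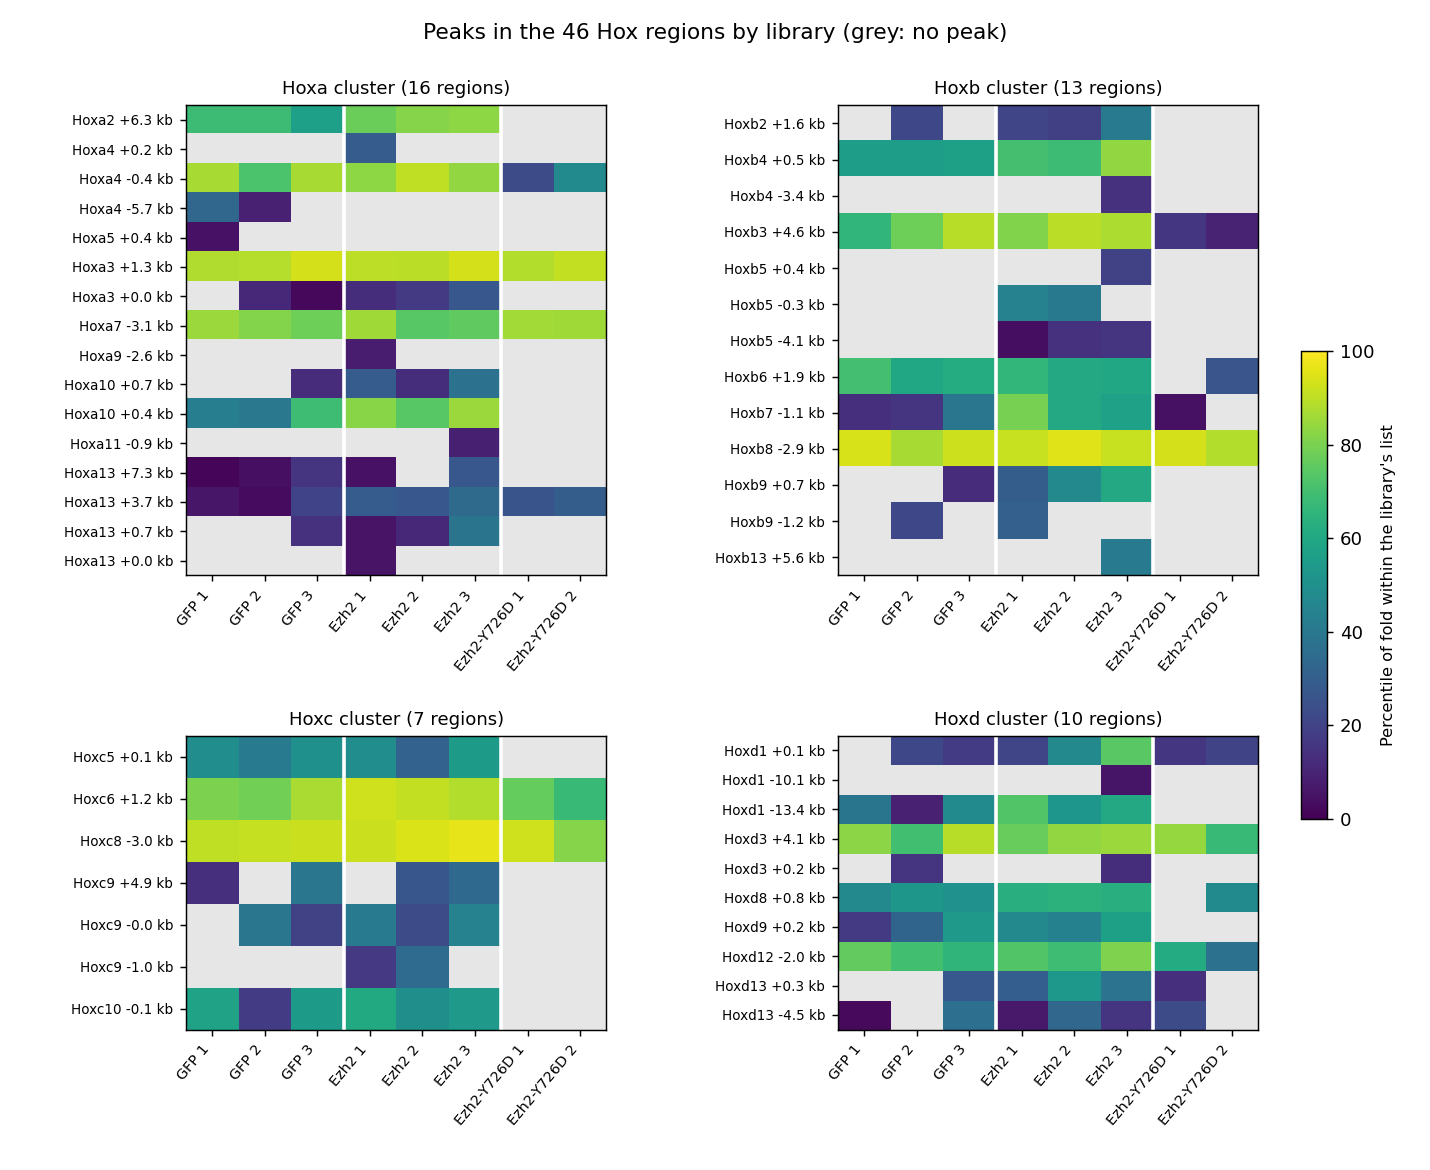
Percentile of each peak's fold within its own library's list, for the 46 Hox regions (rows, labelled by the Hox gene with the nearest start and the distance of the region's middle from it in kb, minus meaning upstream) in the 8 libraries (columns). Grey marks no peak, and 30 of the 46 rows are grey in both Ezh2-Y726D columns.

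The regions that remained in Ezh2-Y726D included weak and strong regions of the control. Strength was read as the percentile of a peak's fold (summit signal over local background) within its own list, with the highest as the strongest. Of the 46 regions, 10 had a peak in all 8 lists, 9 in a single library and 30 in neither Ezh2-Y726D library. Of the 21 regions present in every GFP library, 10 had a peak in both Ezh2-Y726D libraries, with mean GFP percentiles of 9.72 to 91.3 and a median of 81.7. The 3 with a peak in 1 Ezh2-Y726D library lay at 22.7 to 63.9, and the 8 with none at 6.89 to 64.4 with a median of 45.1. The ranges overlapped, and these values are given as a description with no test.

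Among the kept regions, those 2579 to 2642 bp upstream of the start used for a central gene were high in every library. Listed starts were used for Hoxb8 and Hoxa7, and the outer end of the gene for Hoxc8. The annotated body of Hoxb8 begins at chr11:96279401, within 1 kb of its region. The region upstream of Hoxb8 (chr11:96278649-96279303) stood at percentiles 93.8, 87.0 and 92.5 in GFP, 91.6, 95.3 and 91.5 in Ezh2, with 93.7 and 88.6 in Ezh2-Y726D. The region upstream of Hoxc8 (chr15:102987137-102987960), the paralog of Hoxb8, stood at 90.4, 91.3 and 92.2 in GFP, 91.8, 94.2 and 96.2 in Ezh2, with 92.9 and 82.0 in Ezh2-Y726D. The region upstream of Hoxa7 (chr6:52221215-52222175) stood at 84.9, 81.6 and 78.1 in GFP, 85.7, 74.1 and 75.5 in Ezh2, with 86.2 and 85.7 in Ezh2-Y726D. The groups overlapped at the regions of Hoxb8 and Hoxc8, and at Hoxa7 the Ezh2-Y726D libraries were the highest, a difference that did not pass the rank test given below (adjusted p = 0.678). None of these 3 regions overlapped a listed Hox gene or an annotated non-coding gene.

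Of the other kept regions, some lay inside genes and some outside. A region 811 bp from the start of Hoxa3 (chr6:52211376-52212256) ranked between 88.3 and 93.7 in all 8 libraries. A region 3693 bp from the start of Hoxd3, inside the gene (chr2:74715686-74716407) ranked at 82.5, 69.7 and 89.3 in GFP, 76.6, 83.7 and 84.8 in Ezh2, with 84.3 and 67.6 in Ezh2-Y726D. A region 1614 bp upstream of Hoxd12 (chr2:74672651-74673399), outside any listed gene, ranked at 75.9, 69.7 and 65.4 in GFP, 72.8, 68.9 and 80.8 in Ezh2, with 61.4 and 37.8 in Ezh2-Y726D. Hoxa3 and Hoxd3 showed overlapping groups, whereas at Hoxd12 both Ezh2-Y726D libraries ranked lowest.

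Regions with a peak in all 8 lists were compared by rank. Ranks within each list were turned into normal scores, and limma was fitted over all 69493 such regions with Benjamini-Hochberg adjustment. With Ezh2-Y726D, 2 of the 10 Hox regions were lower than in GFP and 0 higher, against 4.65% of all regions lower and 3.55% higher. Without adjustment, 4 were lower and 1 higher at p under 0.05, with no share of all regions counted at that threshold. One region inside Hoxb3 (chr11:96311162-96312227), between Hoxb5 and Hoxb4, stood at percentiles 66.0, 78.0 and 89.4 in GFP, 81.2, 89.5 and 87.8 in Ezh2, with 15.6 and 10.0 in Ezh2-Y726D. It fell by 2.09 ± 0.26 score units (SE, limma adjusted p = 0.0035). The region at the start of Hoxa4 (chr6:52191784-52192479) stood at 86.9, 71.9 and 86.7 in GFP, 83.1, 90.6 and 83.9 in Ezh2, with 22.9 and 47.3 in Ezh2-Y726D. It fell by 1.58 ± 0.26 (adjusted p = 0.0084), a call that ended without Ezh2-Y726D replicate 1 (adjusted p = 0.0834). Both regions thus went from the strong end of the lists to below the middle, with no overlap between Ezh2-Y726D and the other libraries.

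Ezh2 and Ezh2-Y726D differed at these regions too. Here 3 of 10 Hox regions were higher with Ezh2 and 0 lower, against 7% and 6.96% of all regions. The region of Hoxb3 was higher by 2.41 ± 0.26 score units (limma adjusted p = 0.0010), and that of Hoxa4 by 1.73 ± 0.26 (adjusted p = 0.0032). The third lay within 1 kb of the start of Hoxc6 (chr15:102998986-102999961), at percentiles 80.1, 78.7 and 87.5 in GFP, 92.9, 91.0 and 88.6 in Ezh2, with 76.3 and 67.6 in Ezh2-Y726D. It was higher with Ezh2 by 0.93 ± 0.20 (adjusted p = 0.014), and without Ezh2-Y726D replicate 2 the adjusted p was 0.119. Between Ezh2 and GFP, 2 of the 10 had an unadjusted p under 0.05, where again no share of all regions was counted. After adjustment limma called 0 of the 10, against 1.59% of all regions higher and 2.84% lower. The nearest to the threshold was a weak region 3448 bp from the start of Hoxa13 and outside any listed gene (chr6:52256987-52257432), with percentiles of 6.12, 3.03 and 20.0 in GFP, 29.3, 27.0 and 34.5 in Ezh2, with 25.9 and 29.7 in Ezh2-Y726D (difference of Ezh2 from GFP 0.78 ± 0.19, adjusted p = 0.0501). All comparisons share libraries, so those with GFP as control are not separate evidence.

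A peak in every library of 1 group and in none of the other was the stricter contrast. Such losses with Ezh2-Y726D against GFP numbered 8 among the 46 Hox regions, against 4.72% of all regions. Read over regions with a peak in every GFP library, this was 8 of 21 Hox regions (38.1%) against 9.72% of all. The 8 losses became 4 under a stricter overlap, in which a peak counted only if it spanned 0.5 or more of the region's length. Gains numbered 0, against 4.77% of all regions.

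The same shares were counted at starts and elsewhere, with 1 shared bp enough for a peak to count. Of 10 Hox regions within 1 kb of a start, 5 were lost, against 2.69% of 11822 regions at starts of all listed genes. Elsewhere it was 3 of 11, against 10.7% of 80484. These shares were not matched for region strength. The 8 lost Hox regions had a median GFP percentile of 45.1, against 81.7 for the 10 kept in both Ezh2-Y726D libraries. Of regions present in every Ezh2 library, 14 of 30 Hox regions had no Ezh2-Y726D peak, against 16.9% of all. At starts this was 10 of 17, against 4.57% of 12076. Elsewhere it was 4 of 13, against 18.6% of 88610. Starts of 16 Hox genes came from the outer end of the gene rather than from the table of starts, and the table listed a start for 22.

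**Figure D3:**
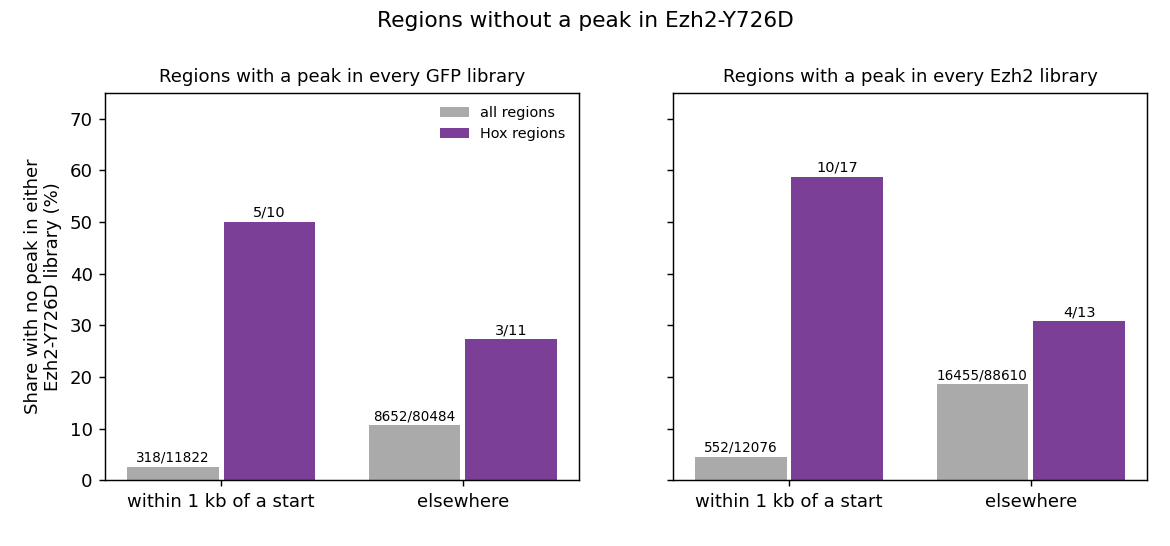
Share (%) of regions with no peak in either Ezh2-Y726D library among those with a peak in every GFP library (left) or every Ezh2 library (right), at starts and elsewhere, for all regions (grey) and Hox regions (purple). Numbers above the bars are regions without a peak over all such regions, and the purple bars at starts reach 50.0% and 58.8%.

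The 5 regions lost at starts belonged to all 4 clusters. Hoxb4, of the anterior group, carried a region over its start (chr11:96318150-96319347) at percentiles 55.6, 56.0 and 56.8 in GFP and 70.4, 68.6 and 83.9 in Ezh2, with no peak in Ezh2-Y726D. Hoxa10, of the posterior group, carried a region over its distal start (chr6:52240003-52240866) at 42.9, 39.9 and 69.1 in GFP and 82.1, 74.0 and 85.0 in Ezh2, with no peak in Ezh2-Y726D. At both, every Ezh2 library ranked above every GFP library, but neither passed when the rank fit took in regions with a peak in at least 5 libraries (Ezh2 minus GFP 0.51 ± 0.19, limma adjusted p = 0.189, and 0.86 ± 0.24, adjusted p = 0.0883). That fit called 0 of 26 Hox regions between Ezh2 and GFP, against 1.64% of all regions higher and 2.13% lower. Without adjustment, 6 were under 0.05, all higher, with no share of all regions counted at that threshold. Hoxd9 carried a region over its start (chr2:74697475-74698552) at 17.2, 32.1 and 53.7 in GFP and 47.1, 43.8 and 56.6 in Ezh2. Hoxc10 carried a region over its start (chr15:102966400-102967068) at 57.5, 17.7 and 54.6 in GFP and 60.9, 50.0 and 53.5 in Ezh2. Hoxc5 carried a region over its start (chr15:103013647-103014587) at 49.1, 41.4 and 50.3 in GFP and 49.2, 31.3 and 54.5 in Ezh2. In these last 3 the GFP and Ezh2 libraries overlapped, and Ezh2-Y726D had no peak.

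The 3 lost regions away from Hox starts were in Hoxa and Hoxd. A region whose middle lay 6292 bp beyond the start of Hoxa2 (chr6:52158045-52159034) overlapped the long non-coding RNA genes Hotairm1 and Hotairm2 and stood at 68.5, 68.4 and 56.4 in GFP and 77.5, 81.7 and 82.9 in Ezh2. A region 12949 bp upstream of Hoxd1 (chr2:74749216-74750031) lay in the long non-coding RNA gene Haglr and stood at 38.9, 9.25 and 48.0 in GFP and 72.7, 52.7 and 60.2 in Ezh2. A weak region 6959 bp from the start of Hoxa13 (chr6:52253334-52253921) stood at 1.37, 3.92 and 15.4 in GFP and at 4.80 and 27.2 in Ezh2 replicates 1 and 3, with no peak in Ezh2 replicate 2. The first pair ranked higher in every Ezh2 than in every GFP library, and neither passed in the fit over regions with a peak in at least 5 libraries (limma adjusted p = 0.198 and 0.195).

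Against Ezh2-Y726D, Ezh2 had 14 such gains and 0 losses, where 8.96% and 6.14% of all regions were gained and lost. They included 7 of the 8 regions above, all but the weak one at Hoxa13. The others had a peak in at most 2 of the 3 GFP libraries. Of these, the start of Hoxb9 (chr11:96271499-96272596) stood at 12.6 in GFP replicate 3 alone and at 29.6, 47.2 and 60.5 in Ezh2. The start of Hoxc9 (chr15:102976366-102977630) stood at 39.2 and 19.7 in GFP replicates 2 and 3 and at 40.7, 22.9 and 44.5 in Ezh2. A region in Hoxb2 (chr11:96352919-96353538) stood at 21.7 in GFP replicate 2 and at 21.0, 18.8 and 41.5 in Ezh2. The proximal start of Hoxa10 (chr6:52233951-52234626) stood at 12.6 in GFP replicate 3 and at 28.9, 12.9 and 37.7 in Ezh2. The remaining 3 lay at the starts of Hoxa3 and Hoxa13 and upstream of Hoxb5.

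Between Ezh2 and GFP, 1 Hox region was gained and 0 were lost, against 2.72% and 1.68% of all regions. The gain lay 3934 bp upstream of Hoxb5 (chr11:96299240-96299578), at low percentiles of 3.64, 14.1 and 15.2 in Ezh2. At Hoxb7, a region upstream of the start (chr11:96284121-96284957) was present in both groups but stood higher in Ezh2, at 79.4, 60.2 and 57.2 against 13.8, 15.0 and 39.4 in GFP, with 4.63 in Ezh2-Y726D replicate 1 and no peak in replicate 2. Its difference between Ezh2 and GFP, 1.24 ± 0.28 score units, did not pass in the fit over regions with a peak in at least 5 libraries (limma adjusted p = 0.0504). None of the 21 regions in every GFP library lacked an Ezh2 peak in all 3 libraries, against 3.45% of all such regions (0.482% at starts and 3.88% elsewhere). Of the regions in every Ezh2 library, 1 of 30 had no GFP peak, against 5.14% of all, with 0 of 17 against 0.919% at starts and 1 of 13 against 5.71% elsewhere. The count of gains rose to 2 without GFP replicate 2, to 4 without Ezh2 replicate 3 and to 5 without GFP replicate 3, whose list of 133674 peaks was the longest of its group.

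The length of each gene window covered by peaks gave a test for genes that some libraries missed. The log2 of covered bp plus 500 was fitted with limma over 18176 protein-coding genes with a peak in any library, 32 of them Hox genes. With Ezh2-Y726D, 15 of 32 Hox windows were covered less than in GFP and 0 more, against 4.44% and 1.66% of all genes. The median difference was -0.67 over the Hox genes and -0.01 over all genes. Windows share peaks, so the 15 genes are not separate observations: Hoxc4 and Hoxc5, for example, had the same values. Of the 15, Hoxa2, Hoxb4, Hoxc4, Hoxc5, Hoxc10, Hoxd9 and Hoxd10 had 0 bp in both Ezh2-Y726D libraries. Libraries at 0 bp have no spread, which favors a low p-value, and the size of these differences depends on the 500 bp added. The 15 were Hoxa2, Hoxa3 and Hoxa6 at Hoxa, Hoxb3, Hoxb4 and Hoxb7 at Hoxb, Hoxc4, Hoxc5, Hoxc6, Hoxc8, Hoxc9 and Hoxc10 at Hoxc, and Hoxd9, Hoxd10 and Hoxd12 at Hoxd.

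All 6 Hoxc genes with any peak were among them. Hoxc4 and Hoxc5, the head end, had 541, 714 and 919 bp covered in GFP, 328, 595 and 510 bp in Ezh2, and 0 bp in both Ezh2-Y726D libraries (difference from GFP -1.28 ± 0.16, limma adjusted p = 0.0042). Hoxc10, toward the tail end, had 469, 349 and 330 bp in GFP, 553, 914 and 1005 bp in Ezh2, and 0 bp in Ezh2-Y726D (-0.82 ± 0.16, adjusted p = 0.027). The GFP and Ezh2 libraries overlapped at Hoxc5 and did not at Hoxc10. The 3 genes farthest toward the tail end, Hoxc11, Hoxc12 and Hoxc13, had no peak in any library.

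In the other clusters the largest differences were at Hoxd9 (-1.44 ± 0.19, limma adjusted p = 0.0050), Hoxb3 (-1.42 ± 0.11, adjusted p = 0.00062) and Hoxa2 (-1.34 ± 0.11, adjusted p = 0.00065). Hoxd9 had 636, 684 and 1340 bp in GFP, 976, 919 and 1065 bp in Ezh2, and 0 bp in Ezh2-Y726D. Hoxb3, whose window holds Hoxb4 as well, had 1669, 1302 and 1669 bp in GFP, 2189, 2460 and 2631 bp in Ezh2, with 313 and 214 bp in Ezh2-Y726D. Hoxa2, a gene of hindbrain and neural crest patterning, had 763, 679 and 848 bp in GFP, 693, 893 and 887 bp in Ezh2, and 0 bp in Ezh2-Y726D, all of it from the region at Hotairm1. Ezh2-Y726D lay below every GFP library in all 3, and in 24 of the 32 windows, as did 18.6% of all genes. Not past the threshold were, for example, Hoxa9 at -0.04 ± 0.10 and Hoxd1 at 0.05 ± 0.27 (adjusted p = 0.904 and 0.962). Hoxa2, Hoxa3, Hoxb3 and Hoxb4 passed under every alternative in which they could be fitted. Hoxc4 and Hoxc5 no longer passed without Ezh2-Y726D replicate 1, nor Hoxd9 and Hoxc10 when either Ezh2-Y726D library was left out. With a −log10 q of at least 5, Hoxd9 and Hoxd10 also failed. Hoxc8 failed in 11 of 14 alternatives, Hoxc10 in 6 of 14, Hoxc9 in 6 of 15, Hoxd12 in 5 of 14 and Hoxb7 in 3 of 15. The count of 15 became 7 without Ezh2-Y726D replicate 1, 9 without its replicate 2, and 6 with windows of 1 kb around each gene.

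**Figure D4:**
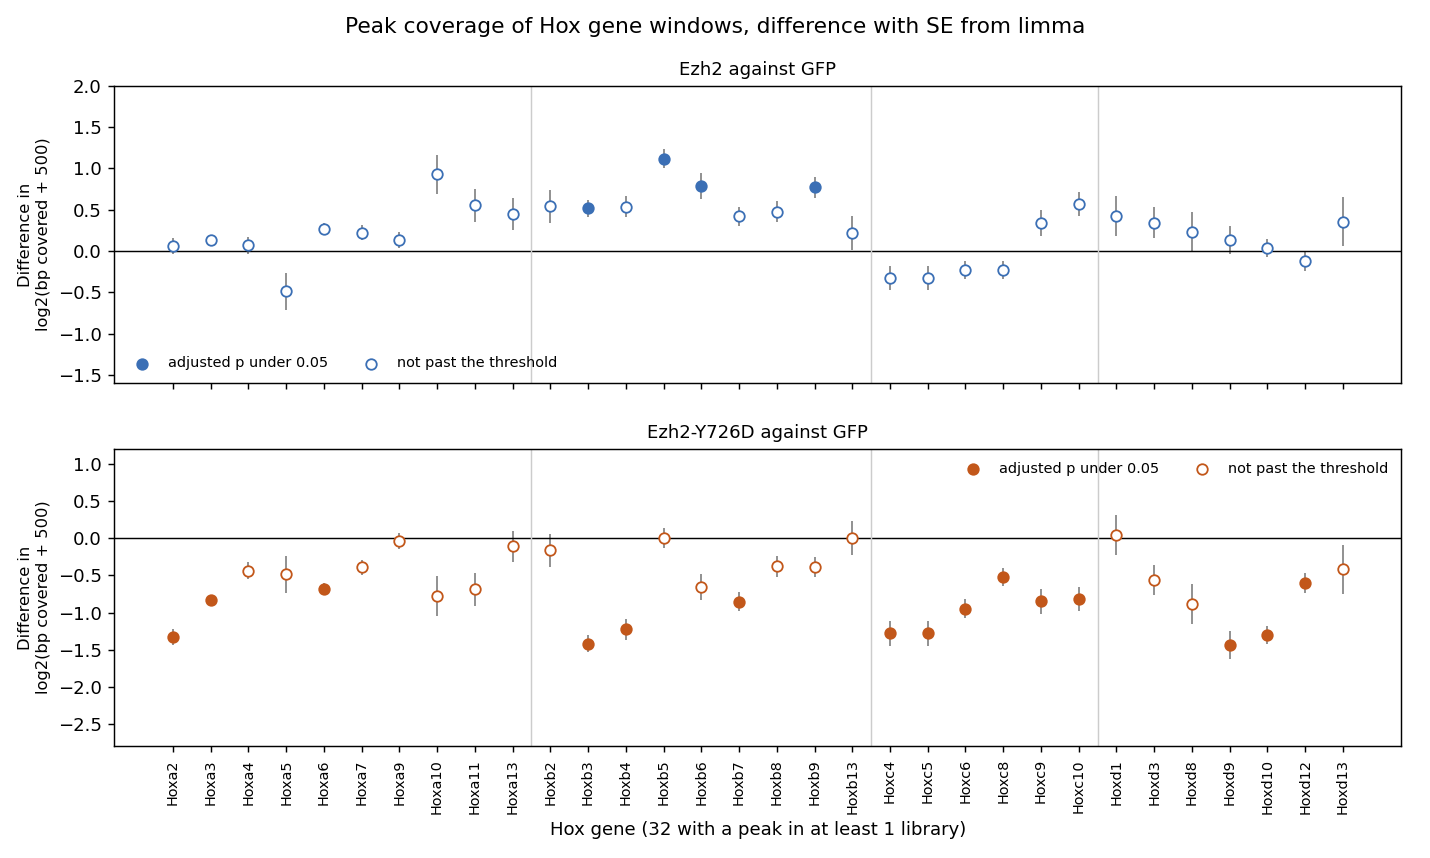
Difference in log2(bp covered by peaks + 500) between Ezh2 and GFP (top) and Ezh2-Y726D and GFP (bottom) for the 32 Hox genes with a peak, ordered by cluster and paralog number, with the SE of limma as bars. Filled points passed an adjusted p of 0.05 over 18176 genes, 4 above 0 in the top panel and 15 below 0 in the bottom panel, and both panels share the GFP libraries.

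Against GFP, Ezh2 covered 4 Hox windows more and 0 less, against 2.22% and 0.396% of all genes, with median differences of 0.31 over the Hox genes and 0.06 over all genes. All 4 were Hoxb genes. Hoxb5 had 0 bp covered in GFP and in Ezh2-Y726D, and 479, 618 and 667 bp in Ezh2 (1.12 ± 0.12, limma adjusted p = 0.0088). Its window entered the fit only through its Ezh2 peaks, and the libraries at 0 bp had no spread. Both favor a low p-value for Hoxb5, here and between Ezh2 and Ezh2-Y726D, so these calls are no separate support. Hoxb6 had 512, 300 and 501 bp in GFP, 944, 1105 and 1301 bp in Ezh2, with 0 and 200 bp in Ezh2-Y726D (0.79 ± 0.16, adjusted p = 0.044). Hoxb9 had 457, 545 and 818 bp in GFP, 1380, 1223 and 1521 bp in Ezh2, with 345 and 328 bp in Ezh2-Y726D (0.77 ± 0.12, adjusted p = 0.025). Hoxb3 differed by 0.52 ± 0.10 (adjusted p = 0.041). The GFP and Ezh2 libraries overlapped in none of the 4, which adds no support because the same values chose them. Every Ezh2 library lay above every GFP library in 13 of the 32 Hox windows, against 16.3% of all genes. Every Ezh2 library lay below in 1, against 4.37%. When a single library was left out the count fell to 1, Hoxb5, for each of the 7 libraries other than GFP replicate 3, and without GFP replicate 3 it rose to 8, with 1 window, Hoxa5, covered less (-0.73 ± 0.17, adjusted p = 0.037). With a −log10 q of at least 5, Hoxb5 no longer passed, at a difference of 0.412 (adjusted p = 0.359).

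Directly compared, Ezh2 covered 24 of 32 Hox windows more than Ezh2-Y726D and 0 less, against 12.6% and 3.12% of all genes, with medians of 0.96 and 0.06. The called genes were Hoxa2, Hoxa3, Hoxa4, Hoxa6, Hoxa7, Hoxa10 and Hoxa11, Hoxb3 to Hoxb9, 5 of Hoxc (Hoxc4, Hoxc5, Hoxc6, Hoxc9 and Hoxc10), and 5 of Hoxd (Hoxd3, Hoxd8, Hoxd9, Hoxd10 and Hoxd12). The largest difference was at Hoxb3 (1.94 ± 0.11, limma adjusted p = 6.19e-05), and the next were at Hoxb4 (1.77 ± 0.15, adjusted p = 0.00027) and Hoxa10 (1.70 ± 0.26, adjusted p = 0.0042). Hoxb4 had 770, 460 and 817 bp in GFP, 1085, 1168 and 1360 bp in Ezh2, and 0 bp in Ezh2-Y726D. Hoxa10 had 213, 249 and 679 bp in GFP, 1246, 718 and 1535 bp in Ezh2, and 0 bp in Ezh2-Y726D. In both, every Ezh2 library lay above every other library. Over all genes, Ezh2 lay wholly above GFP in 16.3% and wholly above Ezh2-Y726D in 33.6%. The Ezh2-Y726D libraries at 0 bp had no spread here either, so the p-values of Hoxb4 and Hoxa10 carry the limit given above. Hoxa10 no longer passed without Ezh2-Y726D replicate 1. The 8 not called were Hoxa5, Hoxa9, Hoxa13, Hoxb2, Hoxb13, Hoxc8, Hoxd1 and Hoxd13, with differences of 0.00 to 0.78.

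Over all 4 clusters, the median percentile of the Hox peaks that were present did not separate the groups. It was 52.4, 40.7 and 52.2 in GFP, 45.7, 51.3 and 55.6 in Ezh2, with 43.7 and 47.3 in Ezh2-Y726D. All 3 groups overlapped, and the sign of the differences turned with a −log10 q of at least 5: for Ezh2-Y726D against GFP from -2.94 to 14.7. Within clusters it went both ways. At Hoxb it was 56.0 to 66.0 in GFP and 44.4 to 57.2 in Ezh2, and 15.6 and 26.5 in Ezh2-Y726D, below every other library. At Hoxc it was 41.4 to 53.3 in GFP and 34.82 to 55.02 in Ezh2, and 84.6 and 74.8 in Ezh2-Y726D, above every other library, where only the regions of Hoxc8 and Hoxc6 had a peak. At Hoxd it was 32.1 to 48.0 in GFP and 47.1 to 58.4 in Ezh2, and 22.9 and 42.5 in Ezh2-Y726D, below every Ezh2 library but overlapping GFP. At Hoxa it was 39.9 to 56.4 in GFP and 29.2 to 74.0 in Ezh2, and 56.1 and 66.5 in Ezh2-Y726D, with all groups overlapping. These medians rest on 2 to 5 peaks per cluster in Ezh2-Y726D.

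Markers of leukocytes moved in the same order as the Hox clusters. Over 20 microglia and macrophage genes, peaks covered 30543 to 38045 bp in GFP, 42631 to 47779 bp in Ezh2 and 17586 to 18971 bp in Ezh2-Y726D. Over 19 T cell genes, the ranges were 43469 to 57396, 64601 to 69937 and 29917 to 35058 bp. In the coverage fit, 10 of 20 microglia and macrophage genes and 9 of 19 T cell genes were lower with Ezh2-Y726D than with GFP, against 4.44% of all genes, and 16 and 17 were higher with Ezh2 than with Ezh2-Y726D, against 12.6%. Between Ezh2 and GFP, 2 of 20 and 1 of 19 were higher and 0 lower, against 2.22% and 0.396% of all genes. Csf1r and Mrc1 lay above 0 with Ezh2-Y726D against GFP (0.09 and 0.13), past the threshold in neither. Tmem119, Itgam, Ctss and Siglech had no peak in either Ezh2-Y726D library, nor did Cd8a and Cd8b1. Siglech also had none in GFP replicate 1 and Ezh2 replicate 2, and Tmem119 none in GFP replicate 2. The cells were sorted for CD90.2, the product of Thy1, which T cells carry as well as RGCs. The part of these cells in the Hox result was not tested.

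Markers of other retinal cells varied less. All 20 RGC genes had a peak in every library and covered 45428 to 56978 bp in GFP, 52090 to 61472 bp in Ezh2 and 52945 to 58294 bp in Ezh2-Y726D. Rod genes covered 52445 to 60010, 49784 to 52781 and 44481 to 49620 bp, with 5 of 20 lower in Ezh2-Y726D than in GFP, against 4.44% of all genes. Müller glia genes covered 63827 to 77027, 60366 to 66179 and 67547 to 75081 bp, with 0 of 20 changed in either comparison with GFP.

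**Figure D5:**
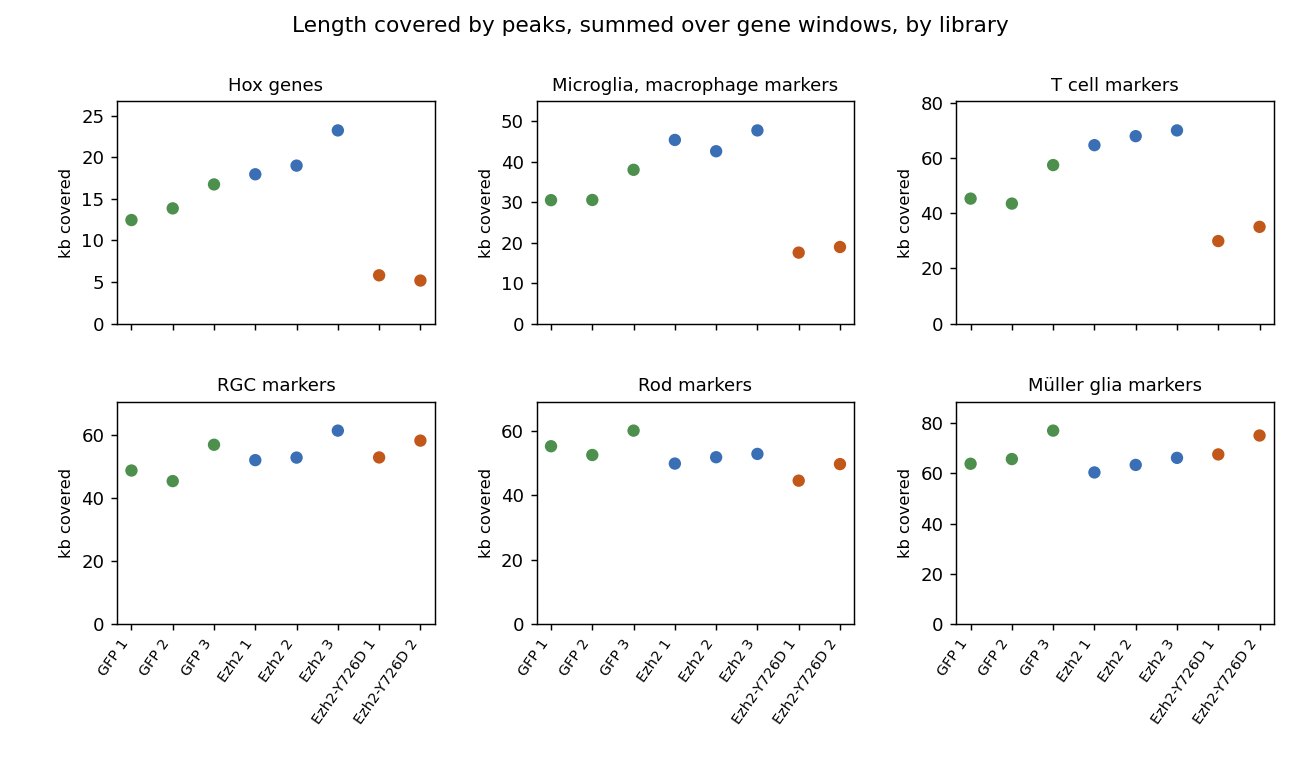
Length covered by peaks (kb, from 0) in each library over the Hox genes and over 5 lists of cell type markers (GFP green, Ezh2 blue, Ezh2-Y726D orange). Hox peaks are counted once and at full length, whereas marker windows are summed gene by gene, and the Ezh2-Y726D points are lowest for Hox, microglia, T cell and rod genes.

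Genes of the complexes that act on Hox clusters were tested in the same coverage fit. Of 12 PRC2 genes, Ezh2 itself was covered more with Ezh2 than with GFP (0.65 ± 0.11, limma adjusted p = 0.029), and endogenous and viral Ezh2 DNA cannot be told apart in these lists. No PRC2 gene passed with Ezh2-Y726D against GFP, where the Ezh2 gene itself stood at -0.24 ± 0.12 (limma adjusted p = 0.342). None of 16 genes of PRC1, the second polycomb complex, passed in either comparison with GFP. Of 10 Trithorax genes, which oppose polycomb, Dpy30 was covered less with Ezh2 (-0.34 ± 0.07, adjusted p = 0.049) and with Ezh2-Y726D (-0.43 ± 0.08, adjusted p = 0.019), as was Ash2l with Ezh2-Y726D (-0.44 ± 0.10, adjusted p = 0.047). The PRC2 call was 1 of 12 genes, against 2.22% of all genes higher with Ezh2. The Trithorax calls were 1 of 10 with Ezh2, against 0.396% of all genes lower, and 2 of 10 with Ezh2-Y726D, against 4.44%. Between Ezh2 and Ezh2-Y726D, higher coverage passed for Ezh2 itself (0.89 ± 0.12, adjusted p = 0.0029), for Bmi1 and Phc3 of PRC1 (0.28 and 0.38), and for Men1 and Ash2l of Trithorax (0.31 and 0.38), with none lower. That is 1 of 12 PRC2, 2 of 16 PRC1 and 2 of 10 Trithorax genes, near the 12.6% of all genes that were higher in this comparison. None of 9 genes of the Meis, Pbx and Pknox cofactors of Hox proteins passed in any comparison. Of 16 genes flanking the clusters, 0 passed against GFP in either comparison, and 4 were higher with Ezh2 than with Ezh2-Y726D, against 12.6% of all genes. These were Evx2, a homeobox gene beside Hoxd13 (1.01 ± 0.21, adjusted p = 0.016), with Skap2, Snx11 and Smug1 at 0.32 to 0.43.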

How the data were processed

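ATAC-seq libraries were grouped by their titles. The authors called peaks in each library separately, and the submitters' processing notes name cutadapt, Bowtie2, SAMtools, Picard, MACS2 and deepTools and the build GRCm38; versions and the threshold were not given in the sources used here. The deposited values are the fold of the summit over local background, the −log10 p-value and −log10 q-value (its lowest value 1.31 to 1.38), a score and the distance of the summit from the peak start; the last pair was not used. The lists hold no read counts, so depth is unknown and no counting interval was given.

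Peaks sharing at least 1 bp were merged. Gene positions and starts came from RefSeq (GRCm38.p6). Normal scores and covered length were compared with limma 3.58.1 in R 4.3.3, all 8 libraries in 1 fit, the second with a trend (Benjamini-Hochberg, 0.05). Interval steps and fits were checked on simulated data. No library lost or imputed a value. Sequences were copied from the table of starts, and CG was counted in 250 bases. Members, lists and tests were chosen with earlier results of these data known. Named were all Hox genes called in a fit, gained or lost regions (at most 3 per cluster and direction) and the 3 highest regions per cluster; further examples were chosen after their values were seen. Pathway genes were named where called. Alternatives were a −log10 q of at least 5, lists cut to 112939 peaks, each library left out, windows of 1 kb, ranking by −log10 p, a peak over at least 0.5 of a region, regions in at least 5 libraries, 50 bp added, genes with a peak in every library, and a replicate block.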

Additional observations from a re-analysis of the deposited data

How the results depend on the processing

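In this paragraph differences are first minus second group. With a −log10 q of at least 5, Hox peaks per library differed by -11.5 for Ezh2-Y726D against GFP (-14.5 as reported) and 21.2 for Ezh2 against Ezh2-Y726D (23.2), Hox genes with a peak by 3.33 for Ezh2 against GFP (1.67), -12.2 (-10.7) and 15.5 (12.3), and the median percentile by -3.84 (2.47), 14.7 (-2.94) and -18.6 (5.4). The rank fit then called 0 and 1 Hox regions for the comparisons with Ezh2-Y726D (2 and 3 as reported), and the coverage fit 2 Hox genes for Ezh2 against GFP (4). With lists of equal length, peaks differed by 21.2 for Ezh2 against Ezh2-Y726D, genes by -12.8 and 14.5, and the percentile by 22.3 and -18.3, and the rank fit called 1 region for Ezh2-Y726D against GFP. With windows of 1 kb, peaks differed by -11.8 and 19.8, genes by 3.67 for Ezh2 against GFP and by -8.83, and the percentile by 10.2 for Ezh2 against Ezh2-Y726D. The coverage fit then called 1 gene for Ezh2 against GFP, 6 for Ezh2-Y726D against GFP (15 as reported) and 15 between Ezh2 and Ezh2-Y726D (24), and Hoxa6 turned from 0.27 to -0.162 for Ezh2 against GFP, past the threshold in neither. With a peak over at least 0.5 of a region, 3 regions were gained with Ezh2 against GFP (1) and 4 were lost with Ezh2-Y726D (8). With regions in at least 5 libraries, the rank fit called 5 for Ezh2 against Ezh2-Y726D. With 50 bp added, the coverage fit called 2 genes for Ezh2 against GFP, and with genes that had a peak in every library 2, 8 and 12, where fewer genes were tested.

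Leaving out single libraries moved genes with a peak to 11.3 to 13.3 for Ezh2 against Ezh2-Y726D, gains with Ezh2 against GFP to 1 to 5, and losses to 0 to 1. Rank calls ran from 0 to 1 for Ezh2 against GFP and 1 to 3 for Ezh2-Y726D against GFP, and coverage calls, both directions together, from 1 to 9 and 7 to 14. Same-numbered libraries did not deviate together (correlations of -0.015 to 0.048), so the numbers were not taken as pairs. With a replicate block by the titles' numbers the coverage fit called 8 genes for Ezh2 against GFP, 15 for Ezh2-Y726D against GFP and 24 between them, and the rank fit 0, 2 and 3. With the numbers in the peak names, an alternative added after the data were seen, the coverage fit called 3, 19 and 25. The peak names carried 2 and 3 for the Ezh2-Y726D libraries titled replicates 1 and 2. The titles were used throughout, also for the correlations of same-numbered libraries. Peaks per library, genes with a peak and the absence of gains with Ezh2-Y726D kept their direction under every alternative run. The cause of the changes was not tested, and the unknown depth limits what a missing peak can show.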

Other observations

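The Hox clusters also hold non-coding genes, which were matched by their own coordinates with 1 kb on either side. Of 24 long non-coding RNA genes, the GFP libraries had a peak at 11, 12 and 11, those with Ezh2 at 13, 12 and 15, and those with Ezh2-Y726D at 6 and 7. Hotairm1 and Hotairm2 had a peak in all 6 GFP and Ezh2 libraries and in neither Ezh2-Y726D library. Haglr, Hoxaas3 and Hoxd3os1 had a peak in all 8 libraries, and Hottip, beside Hoxa13, in none. Of 5 microRNA genes, Mir10a, which lies between Hoxb5 and Hoxb4, had a peak in all 3 Ezh2 libraries and in no other. These were the peaks over the Hoxb4 start, which came within 1 kb of Mir10a in Ezh2 only. Mir615, at Hoxc5, had a peak in all 6 GFP and Ezh2 libraries and in neither Ezh2-Y726D library, and Mir10b and Mir196a-2 had none. These genes were chosen after their values were seen, they share peaks with the Hox genes, and no test was run. The share of all non-coding genes with a peak was not counted, so these counts have no background.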
